A study of Homo sapiens with 6 samples.

Results

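The genes described here are 39 members of glycolysis and of the response to low oxygen, out of 25548 gene rows in the deposited expression table. They were listed by symbol from what the genes are known to do, with no measured value in the rule. Earlier results of these data were known when the list was made. All 39 symbols matched exactly 1 row. RNA sequencing was done on A375, an established line of human melanoma cells with a BRAF mutation, with 3 samples from cells exposed for 6 h to BMH-21 at 1 µM and 3 DMSO controls that the titles place at 0 h. BMH-21 is a small-molecule inhibitor of RNA polymerase I, the enzyme that transcribes ribosomal RNA genes. Both groups were cultured in DMEM with serum, the design text calls the replicates biological, and no label gives the oxygen tension or the glucose content of the medium. Because the controls are titled 0 h, BMH-21 and a further 6 h of culture cannot be told apart.

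Glycolysis turns glucose into pyruvate and yields ATP without oxygen. Glucose enters through facilitative transporters, is trapped by hexokinase, committed by phosphofructokinase, split by aldolase and oxidised from glyceraldehyde phosphate onwards, and the pyruvate is reduced to lactate or passed to mitochondria. Many of these genes are direct targets of hypoxia-inducible factor (HIF), whose alpha subunit is hydroxylated by oxygen-dependent prolyl hydroxylases and then destroyed. At low oxygen the alpha subunit persists, pairs with ARNT and binds a short motif with the core ACGTG or GCGTG. Melanoma cells commonly ferment glucose to lactate even with oxygen present.

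For each gene the table held 3 values per group in FPKM, a fragment count scaled for transcript length and library size. The values are titled as replicates, yet the first was the midpoint of the other 2, within a relative tolerance of 0.0001, in 15872 of 15881 BMH-21 rows and 16203 of 16213 control rows with all values above 0. They were therefore read as 1 estimate per group between its lower and upper bounds. The sources used here do not say what confidence the bounds stand for. No spread between replicates can be had from such values, so differences below carry no p-value. Sequencing depth was unknown, since FPKM keeps no read totals. Intervals are called separate where the range between one group's bounds lay wholly above that of the other. Genes whose estimate reached 1 FPKM with BMH-21, in control or in both are called measured, and differences are given as log2(FPKM + 1) in BMH-21 minus control, ± the half-width combined from both groups' bounds. This scale understates differences of genes near 1 FPKM, and overlapping intervals do not show equal levels.

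The label of the line was checked against its markers. Of 12 melanocyte and melanoma markers, 7 were at 1 FPKM or more in both groups, led by MIA at 298 FPKM with BMH-21 and 343 FPKM in control, while the pigment genes PMEL, MLANA, TYR, TYRP1 and DCT were all under 1 FPKM. MITF and S100B, both among the 7, were lower with BMH-21 with separate intervals. Markers of endothelial cells (0 of 5) and blood cells (0 of 5) did not reach 1 FPKM in either group, and 2 of 7 keratinocyte markers did, with KRT10 highest at 10.6 FPKM with BMH-21 against 10.4 FPKM in control. Of 6 fibroblast markers, 3 reached 1 FPKM with BMH-21 and 2 in control, with a summed level of 9.34 FPKM with BMH-21 against 4.71 FPKM in control. LUM, which led them at 5.23 FPKM with BMH-21 against 2.34 FPKM in control, and DCN, at 2.50 FPKM with BMH-21 against 0.419 FPKM in control, were higher with BMH-21 with separate intervals, whereas the collagen genes COL1A1, COL1A2 and COL3A1 were under 1 FPKM in both groups. The part of these markers in the results below was not tested.

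The promoters of 5 members are shown because they set the members with the clearest difference beside well-known HIF targets without one. SLC2A1 and ANGPTL4 had separate intervals, while PGK1, LDHA and BNIP3 overlapped. The choice of genes was made with these values known. Where a gene had more than 1 window, only a window with a match could be shown, which applied to LDHA. Each run is the 250 bases before the transcription start in the RefSeq table of GRCh38.p14, read 5′ to 3′ on the strand of the gene, and capitals mark ACGTG or GCGTG on either strand. The SLC2A1 window is chr1:42958869-42959118 on the minus strand, that of ANGPTL4 chr19:8363905-8364154 on the plus strand, that of PGK1 chrX:78103998-78104247 on the plus strand, that of LDHA chr11:18394313-18394562 on the plus strand (1 of 2 windows listed for the gene) and that of BNIP3 chr10:131981924-131982173 on the minus strand.
SLC2A1: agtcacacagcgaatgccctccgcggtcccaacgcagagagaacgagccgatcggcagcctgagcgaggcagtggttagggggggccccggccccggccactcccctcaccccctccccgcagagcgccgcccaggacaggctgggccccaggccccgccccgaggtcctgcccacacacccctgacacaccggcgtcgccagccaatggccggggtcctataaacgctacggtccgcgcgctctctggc
ANGPTL4: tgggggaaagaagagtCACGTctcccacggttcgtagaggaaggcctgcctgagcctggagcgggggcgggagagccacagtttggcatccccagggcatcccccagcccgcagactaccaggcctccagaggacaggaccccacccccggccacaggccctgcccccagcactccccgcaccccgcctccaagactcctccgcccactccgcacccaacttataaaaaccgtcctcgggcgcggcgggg
PGK1: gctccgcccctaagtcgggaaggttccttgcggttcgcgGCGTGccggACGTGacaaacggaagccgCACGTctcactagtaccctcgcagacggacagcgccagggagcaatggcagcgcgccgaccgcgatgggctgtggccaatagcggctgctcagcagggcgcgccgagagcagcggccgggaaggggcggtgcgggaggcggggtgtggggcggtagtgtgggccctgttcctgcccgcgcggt
LDHA: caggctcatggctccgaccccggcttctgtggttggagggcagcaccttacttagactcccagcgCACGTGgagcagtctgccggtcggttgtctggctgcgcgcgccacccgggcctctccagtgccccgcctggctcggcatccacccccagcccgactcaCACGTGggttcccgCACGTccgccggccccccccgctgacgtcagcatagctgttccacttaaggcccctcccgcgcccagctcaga
BNIP3: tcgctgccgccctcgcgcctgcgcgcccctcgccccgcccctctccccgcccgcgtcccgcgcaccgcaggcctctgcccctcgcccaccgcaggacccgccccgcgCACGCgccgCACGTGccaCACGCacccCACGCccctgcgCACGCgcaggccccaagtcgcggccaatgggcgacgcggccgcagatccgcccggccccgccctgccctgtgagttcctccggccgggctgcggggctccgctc

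The SLC2A1 window held 0 matches and the ANGPTL4 window 1, which began at position -234 relative to the start. The PGK1 window held 3 matches, the LDHA window 5 and the BNIP3 window 6, where the palindrome CACGTG counts once on each strand. RefSeq windows were found for 34 of the 39 members, 61 windows in all; the members without one were SLC2A3, SLC16A1, VEGFA, BNIP3L and NDRG1. ACGTG, on either strand, lay in 37.7% of the members' windows against 18.5% of all 35116 windows. GCGTG lay in 31.1% against 32.2%, and at least 1 of the motifs in 59.0% against 43.2%. These shares count windows, not genes, and a gene can have more than 1 window. All windows cover 27305 genes, expressed here or not, and no test compared the shares. Of the 34 members with a window, 28 had a match in at least 1 window. The promoters shown do not stand for the rest, and whether matches went with the differences was not tested. A match describes the letters of the window and is no evidence of binding, and a window without one says nothing of the factor.

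Of the 39 members, 35 were measured. In 3 of them (8.57%) the intervals were separate and higher with BMH-21, namely SLC2A1, ANGPTL4 and NDRG1, and in 0 they were separate and lower. Among all 12740 measured genes other than short RNAs, 3.58% were separate and higher and 3.15% separate and lower (456 and 401 genes). Scaling both groups to the same total without short RNA rows gave 356 higher and 518 lower. The other 32 measured members (91.4%) overlapped, beside 93.3% of all genes. By the laxer measure of a difference beyond its half-width, 4 members were higher and 2 lower (11.4% and 5.71%), where all genes gave 7.19% and 7.08%. With a threshold of 1.5-fold, applied to FPKM + 1, there were 3 members higher and 0 lower, against a background of 2.96% and 2.43%. The members' median log2 difference was 0.13 and that of all genes 0.03. Under the total without short RNA rows these medians were 0.063 for members and -0.023 for all genes, and under quantile normalization 0.018 and -0.016. In bulk RNA, more transcripts per cell and a larger share of cells with the transcript cannot be told apart.

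**Figure D1:**
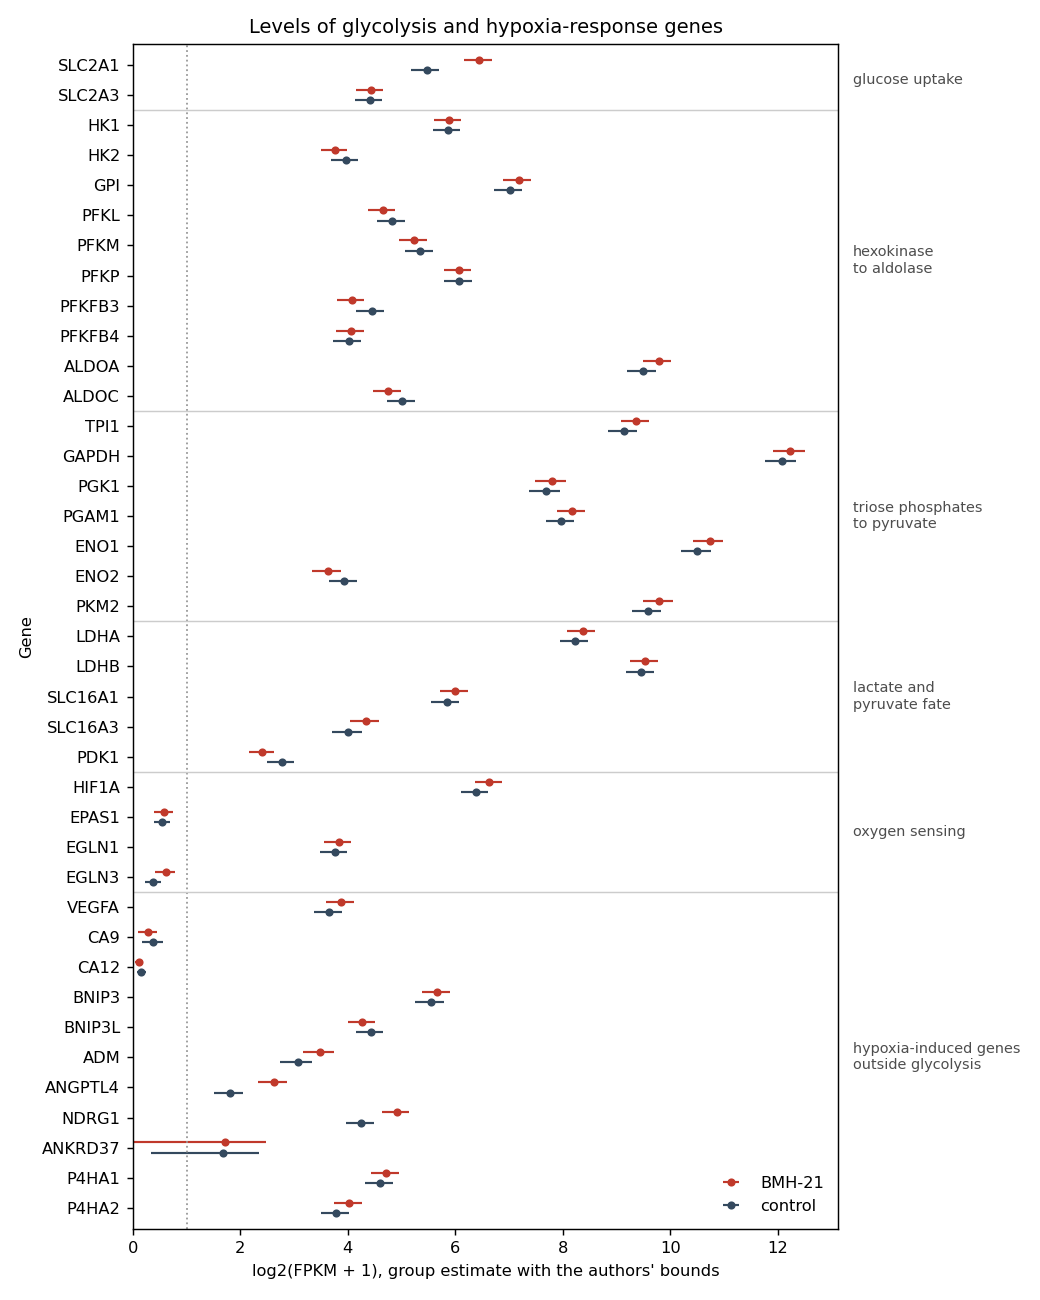
Level of each of the 39 genes as log2(FPKM + 1), in BMH-21 (red, upper) and control (dark, lower), grouped by role; points are the group estimates, lines the authors' bounds, and the dotted line marks 1 FPKM. Bars part for SLC2A1, ANGPTL4 and NDRG1, and overlap for the other 36 genes.

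Glucose uptake held 1 of the 3 members with separate intervals. SLC2A1, which encodes the widely expressed glucose transporter GLUT1, was at 86.1 FPKM (bounds 70.5 to 102) with BMH-21 and 43.2 FPKM (bounds 35.3 to 51.0) in control. This was a 1.99-fold difference and a log2 difference of 0.98 ± 0.37, and a gap of 19.5 FPKM lay between the intervals. SLC2A3, which encodes the high-affinity transporter GLUT3, was at 20.5 FPKM (bounds 16.7 to 24.3) with BMH-21 and 20.2 FPKM (bounds 16.5 to 24.0) in control. So SLC2A1 made up 80.7% of the FPKM summed over both transporters with BMH-21 and 68.1% in control. The bounds allow 74.4% to 85.9% with BMH-21 and 59.5% to 75.6% in control, and these ranges overlap narrowly. By level among all measured genes other than short RNAs, SLC2A1 stood at rank 900 with BMH-21 and rank 1813 in control.

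From hexokinase to aldolase all 10 members overlapped, with a median log2 difference of -0.06, and 6 of 10 had a lower estimate with BMH-21. The signs of HK1 and PFKFB4 depended on the scaling. HK1, the constitutive hexokinase, was at 57.8 FPKM with BMH-21 and 57.1 FPKM in control. HK2, the isozyme that HIF and growth signals induce, was at 12.6 FPKM (bounds 10.3 to 14.9) with BMH-21 and 14.6 FPKM (bounds 11.96 to 17.3) in control. GPI, which converts glucose phosphate to fructose phosphate, was at 144 FPKM with BMH-21 and 128 FPKM in control. The subunits of phosphofructokinase-1 differed little, with PFKP at 65.7 FPKM with BMH-21 against 66.3 FPKM in control, PFKM at 36.7 FPKM with BMH-21 against 39.7 FPKM in control and PFKL at 24.2 FPKM with BMH-21 against 27.3 FPKM in control. These estimates left PFKP as the leading subunit, with 51.9% of their sum in BMH-21 and 49.7% in control.

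The bifunctional enzymes PFKFB3 and PFKFB4 make and break fructose 2,6-bisphosphate, the strongest activator of phosphofructokinase-1. Their estimates lay closer together with BMH-21 than in control. PFKFB3, a strong net producer, was at 15.8 FPKM (bounds 12.9 to 18.7) with BMH-21 and 20.7 FPKM (bounds 16.9 to 24.6) in control. Its log2 difference of -0.37 ± 0.36 just exceeded the half-width although the intervals overlapped. PFKFB4 was at 15.7 FPKM (bounds 12.7 to 18.6) with BMH-21 and 15.2 FPKM (bounds 12.3 to 18.0) in control. PFKFB3 therefore made up 50.2% of both with BMH-21 and 57.8% in control, with allowed ranges of 40.9% to 59.5% with BMH-21 and 48.4% to 66.7% in control. ALDOA, the main aldolase, was at 879 FPKM (bounds 722 to 1037) with BMH-21 and 718 FPKM (bounds 587 to 849) in control. ALDOC, the aldolase of brain, was at 25.9 FPKM with BMH-21 and 31.3 FPKM in control, and held 2.86% of the aldolase sum with BMH-21 and 4.18% in control.

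The enzymes from triose phosphates to pyruvate include the most abundant members. All 7 overlapped, 6 with a higher and 1 with a lower estimate in BMH-21, and their median log2 difference was 0.20. Under quantile normalization GAPDH, PGAM1 and PGK1 turned to lower estimates. GAPDH, the dehydrogenase that reduces NAD, was at 4824 FPKM (bounds 3838 to 5811) with BMH-21 and 4328 FPKM (bounds 3465 to 5192) in control. It stood at rank 1 with BMH-21 and rank 2 in control among measured genes other than short RNAs. ENO1, the ubiquitous enolase, was at 1701 FPKM (bounds 1372 to 2030) with BMH-21 and 1448 FPKM (bounds 1173 to 1724) in control. PKM2, the older symbol of the pyruvate kinase gene PKM, was at 889 FPKM (bounds 722 to 1056) with BMH-21 and 763 FPKM (bounds 621 to 906) in control. With BMH-21 these 3 estimates lay above their control estimates by 1.11 to 1.17-fold, less than their intervals resolve.

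TPI1, which interconverts the triose phosphates, was at 661 FPKM with BMH-21 and 561 FPKM in control. PGAM1, a phosphoglycerate mutase, was at 287 FPKM with BMH-21 and 251 FPKM in control, and PGK1, the kinase that forms the first ATP of the pathway, at 221 FPKM with BMH-21 and 205 FPKM in control. ENO2, the neuronal enolase that is also a HIF target, went against the rest, at 11.4 FPKM (bounds 9.13 to 13.6) with BMH-21 and 14.3 FPKM (bounds 11.5 to 17.0) in control. It held 0.664% of the enolase sum with BMH-21 and 0.976% in control. Several of these genes have near-identical processed pseudogenes, and the sources used here do not say how reads matching more than 1 copy were counted, so the levels of GAPDH, PGK1, PGAM1, TPI1, ENO1, LDHA and LDHB are uncertain to that extent.

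Over the 15 enzyme genes from hexokinase to pyruvate kinase the summed level was 9841 FPKM with BMH-21 and 8654 FPKM in control, a ratio of 1.14. The bounds sum to 7917 and 11764 FPKM with BMH-21 and to 6984 and 10323 FPKM in control, and overlap widely. These enzymes took 1.90% of all FPKM outside short RNA rows with BMH-21 and 1.74% in control, and GAPDH alone made up 49.0% and 50.0% of the enzyme sum in BMH-21 and control.

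The 10 members at a mean level of 100 FPKM or more (ALDOA, ENO1, GAPDH, GPI, LDHA, LDHB, PGAM1, PGK1, PKM2 and TPI1) all had a higher estimate with BMH-21, by a median log2 difference of 0.18, as did 71.6% of all 744 genes at that level, with a median of 0.09. All 10 kept a higher estimate under median centring (median 0.15), beside 64.7% of all genes at that level (median 0.056). They also did so under the total without short RNA rows (median 0.12), beside 57.0% of all genes at that level (median 0.026). Under quantile normalization 5 of the 10 were higher and 5 lower, beside 38.6% of all genes at that level higher. None of the 10 differed by more than its half-width. Between 10 and 100 FPKM, 13 of 21 members were higher and 8 lower, a share of 61.9% against 59.7% of all genes of that level.

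**Figure D2:**
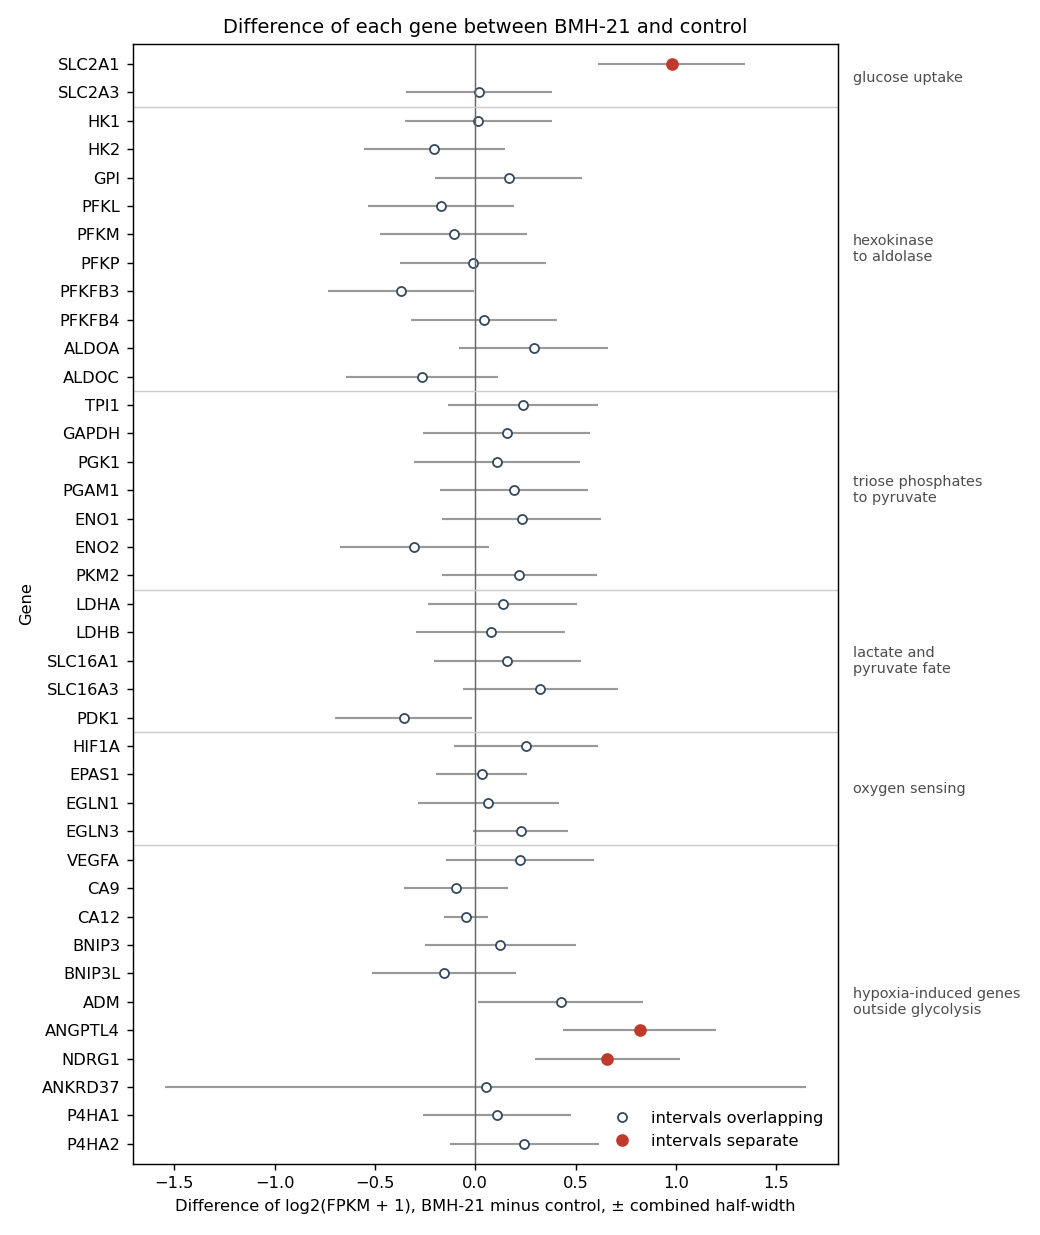
Difference of log2(FPKM + 1), BMH-21 minus control, for each of the 39 genes by role; lines are the half-widths combined from the bounds, filled points have separate intervals and open points overlapping ones. The filled points are SLC2A1 at 0.98, ANGPTL4 at 0.82 and NDRG1 at 0.66, and the line of ANKRD37 is the widest.

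Genes of lactate formation, lactate export and pyruvate routing all overlapped. LDHB, the lactate dehydrogenase subunit of heart, was the more abundant, at 742 FPKM (bounds 608 to 876) with BMH-21 and 703 FPKM (bounds 576 to 830) in control. LDHA, the subunit of muscle and a HIF target, was at 330 FPKM (bounds 271 to 389) with BMH-21 and 300 FPKM (bounds 246 to 354) in control, so it held 30.8% of the summed subunits with BMH-21 and 29.9% in control. The monocarboxylate transporters that carry lactate across the membrane were SLC16A1, at 63.0 FPKM with BMH-21 against 56.2 FPKM in control, and the HIF-induced exporter SLC16A3. The level of SLC16A3 was 19.2 FPKM (bounds 15.4 to 22.9) with BMH-21 and 15.1 FPKM (bounds 12.01 to 18.2) in control. SLC16A3 had the largest positive difference of the lactate genes, 0.32 ± 0.39, within its half-width.

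PDK1, the kinase that blocks pyruvate dehydrogenase and is induced by HIF, had a lower estimate in the treated cells. It was at 4.32 FPKM (bounds 3.47 to 5.18) with BMH-21 and 5.82 FPKM (bounds 4.66 to 6.97) in control. Its log2 difference of -0.36 ± 0.34 exceeded the half-width while the intervals overlapped. PDK1 and PFKFB3 were the 2 members lower by that measure, and SLC2A1, ANGPTL4, NDRG1 and, on the authors' scaling but on none of the 3 others, ADM were the 4 members higher.

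Among the oxygen sensors, HIF1A carried nearly the whole alpha-subunit message. HIF1A was at 98.3 FPKM (bounds 81.2 to 115) with BMH-21 and 82.4 FPKM (bounds 67.6 to 97.1) in control, a log2 difference of 0.25 ± 0.36. EPAS1, which encodes the other main alpha subunit HIF-2 alpha, was at 0.497 FPKM with BMH-21 and 0.464 FPKM in control, below the level counted as measured. HIF alpha is governed mainly through its protein, which was not measured here. The prolyl hydroxylase gene EGLN1 was at 13.2 FPKM (bounds 10.8 to 15.6) with BMH-21 and 12.6 FPKM (bounds 10.2 to 14.9) in control. EGLN3, a hydroxylase that HIF itself induces, was at 0.526 FPKM (bounds 0.335 to 0.717) with BMH-21 and 0.304 FPKM (bounds 0.167 to 0.442) in control, overlapping and under 1 FPKM. With EGLN2, the hydroxylase that is no member, in the sum, EGLN1 held 23.3% of the hydroxylase message with BMH-21 and 25.7% in control.

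**Figure D3:**
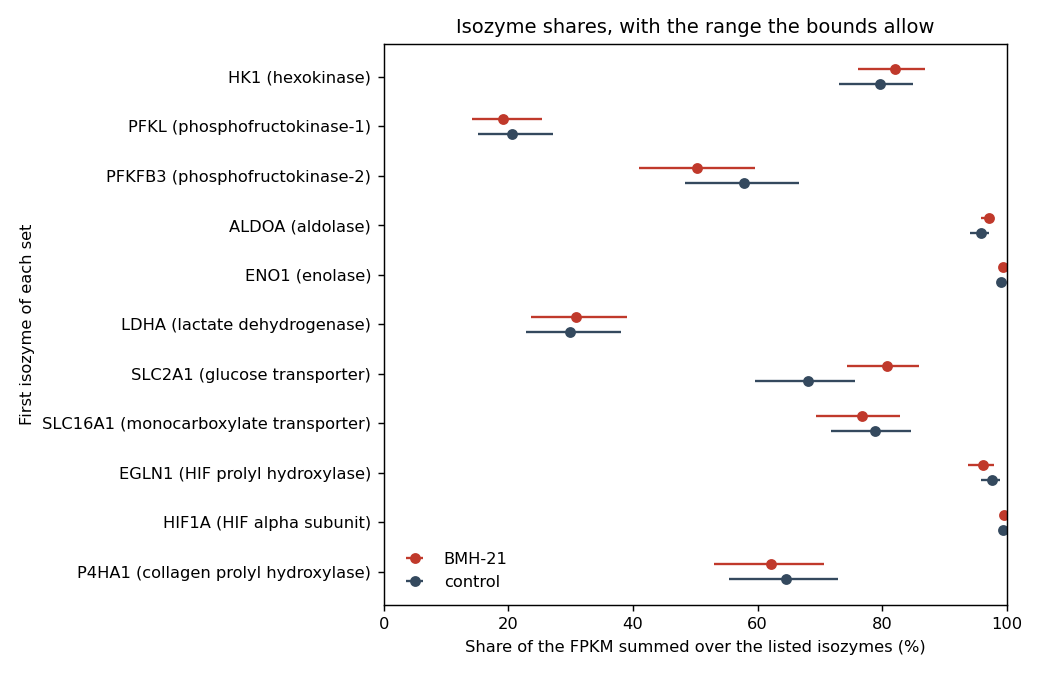
Share in percent of the FPKM summed over the listed isozymes that the first isozyme of each of 11 sets held, in BMH-21 (red, upper) and control (dark, lower); lines run from the lowest to the highest share that the authors' bounds allow. The widest shift is that of SLC2A1, 80.7% with BMH-21 and 68.1% in control.

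Hypoxia-induced genes outside glycolysis held the other members with separate intervals. ANGPTL4, a secreted inhibitor of lipoprotein lipase that HIF and nuclear receptors induce, was at 5.17 FPKM (bounds 4.05 to 6.29) with BMH-21 and 2.49 FPKM (bounds 1.84 to 3.15) in control. It was 2.07-fold higher, with a log2 difference of 0.82 ± 0.38, and the intervals were 0.895 FPKM apart. NDRG1, a stress-induced gene that responds to hypoxia, was at 29.1 FPKM (bounds 23.8 to 34.3) with BMH-21 and 18.0 FPKM (bounds 14.7 to 21.4) in control. It was 1.61-fold higher, with a log2 difference of 0.66 ± 0.36 and a gap of 2.38 FPKM. NDRG1 is known to be raised by p53 as well as by hypoxia, and whether either had a part in its difference here was not tested. In a list of 12 p53 targets kept for comparison, 11 were higher with separate intervals, CDKN1A at 329 FPKM with BMH-21 against 33.5 FPKM in control and MDM2 at 315 FPKM with BMH-21 against 34.6 FPKM in control, and the other 1, TP53I3, overlapped at 26.1 FPKM with BMH-21 against 21.2 FPKM in control.

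ADM, which encodes the vasodilator adrenomedullin, was at 10.2 FPKM (bounds 8.04 to 12.5) with BMH-21 and 7.37 FPKM (bounds 5.68 to 9.07) in control. Its log2 difference of 0.43 ± 0.41 narrowly exceeded the half-width, and the intervals overlapped. Under the 3 other scalings the difference was 0.37 to 0.40, within that half-width. VEGFA, the angiogenic growth factor and a standard readout of HIF, was at 13.7 FPKM (bounds 11.0 to 16.3) with BMH-21 and 11.6 FPKM (bounds 9.35 to 13.8) in control. Neither gene was therefore set apart by its bounds, in contrast to ANGPTL4 and NDRG1, though no test compared these genes with each other.

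The mitophagy receptors lay close to control, with BNIP3 at 49.8 FPKM with BMH-21 and 45.5 FPKM in control, and BNIP3L at 18.3 FPKM with BMH-21 and 20.5 FPKM in control. The collagen prolyl hydroxylase subunits overlapped too, P4HA1 at 25.2 FPKM with BMH-21 against 23.4 FPKM in control and P4HA2 at 15.3 FPKM with BMH-21 against 12.8 FPKM in control. ANKRD37, a small HIF target, was at 2.30 FPKM with BMH-21 and 2.18 FPKM in control, and its bounds of 0 to 4.59 FPKM with BMH-21 and 0.263 to 4.10 FPKM in control resolve no difference. The tumour-associated carbonic anhydrases were barely present. CA9, a widely used marker of hypoxic tumour cells, was at 0.220 FPKM (bounds 0.0732 to 0.366) with BMH-21 and 0.303 FPKM (bounds 0.133 to 0.473) in control, and CA12 at 0.0809 FPKM with BMH-21 and 0.115 FPKM in control. The 4 members that were not measured were thus CA9, CA12, EPAS1 and EGLN3.

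Other genes of the same pathways, 132 in 6 lists, were read against the same background. Of the 102 measured, 7 were higher with separate intervals (6.86%), 1 was lower (0.980%) and 94 overlapped, and their median log2 difference was 0.06. TIGAR, which lowers fructose 2,6-bisphosphate and is a p53 target, was the 1 separate gene among 15 measured glycolysis isozymes and regulators. Under its older symbol C12orf5 it was 4.75-fold higher, at 14.2 FPKM (bounds 11.7 to 16.7) with BMH-21 and 2.99 FPKM (bounds 2.40 to 3.59) in control, and its log2 difference of 1.93 ± 0.33 was larger than that of any member.

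The branches that leave glycolysis had 1 separate gene. All 14 genes from pyruvate to acetyl-CoA overlapped (median 0.04). Their highest log2 difference was 0.36, for the phosphatase gene PDP1 at 66.5 FPKM with BMH-21 against 51.7 FPKM in control. Their lowest was -0.19, for the kinase gene PDK2 at 7.34 FPKM with BMH-21 against 8.54 FPKM in control. All 10 genes of the pentose phosphate branch overlapped (median 0.01). Log2 differences there were highest for PGD, 0.29, at 91.1 FPKM with BMH-21 against 74.2 FPKM in control. They were lowest for PGLS, -0.31, at 58.3 FPKM with BMH-21 against 72.5 FPKM in control. In gluconeogenesis and glycogen metabolism 9 of 10 overlapped (median -0.09). PYGB, the glycogen phosphorylase of brain, was the 1 lower gene, at 177 FPKM (bounds 145 to 209) with BMH-21 and 258 FPKM (bounds 210 to 305) in control. Its intervals were 0.553 FPKM apart at a log2 difference of -0.54 ± 0.38. GBE1, the glycogen branching enzyme, had the highest difference of that list, at 33.6 FPKM with BMH-21 against 26.0 FPKM in control.

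Of 16 measured genes among the HIF subunits and oxygen-sensing factors, all overlapped (median 0.17). ARNT2, a partner of HIF alpha, had the highest log2 difference, 0.44 ± 0.36, at 21.2 FPKM with BMH-21 against 15.4 FPKM in control. It exceeded its half-width although the intervals overlapped. The lowest log2 difference, -0.37, was that of the ubiquitin ligase gene SIAH2, at 11.0 FPKM with BMH-21 against 14.5 FPKM in control. Of 37 other hypoxia-induced genes, 6 were higher (16.2%), 0 lower and 31 overlapped, and their median of 0.05 lay near that of all genes. STC2, a secreted glycoprotein, was 3.05-fold higher at 5.29 FPKM with BMH-21 against 1.73 FPKM in control. The histone demethylase gene KDM4B was at 7.72 FPKM with BMH-21 against 4.79 FPKM in control and the urokinase receptor gene PLAUR at 35.5 FPKM with BMH-21 against 23.8 FPKM in control. FLT1 and STC1, named after their values were seen, were separate by only 0.028 and 0.012 FPKM. Genes that respond to HIF in many cell types and were not separate included DDIT4, BHLHE40 and KDM3A, all 3 also named after their values were seen. DDIT4 was at 165 FPKM with BMH-21 against 122 FPKM in control, higher beyond its half-width at 0.44 ± 0.37. BHLHE40 was at 7.34 FPKM with BMH-21 against 9.94 FPKM in control, lower beyond its half-width at -0.39 ± 0.37. KDM3A, at 7.89 FPKM with BMH-21 against 7.49 FPKM in control, was within its half-width. DDIT4 is a known p53 target too, and a part of p53 in its difference was not tested.

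**Figure D4:**
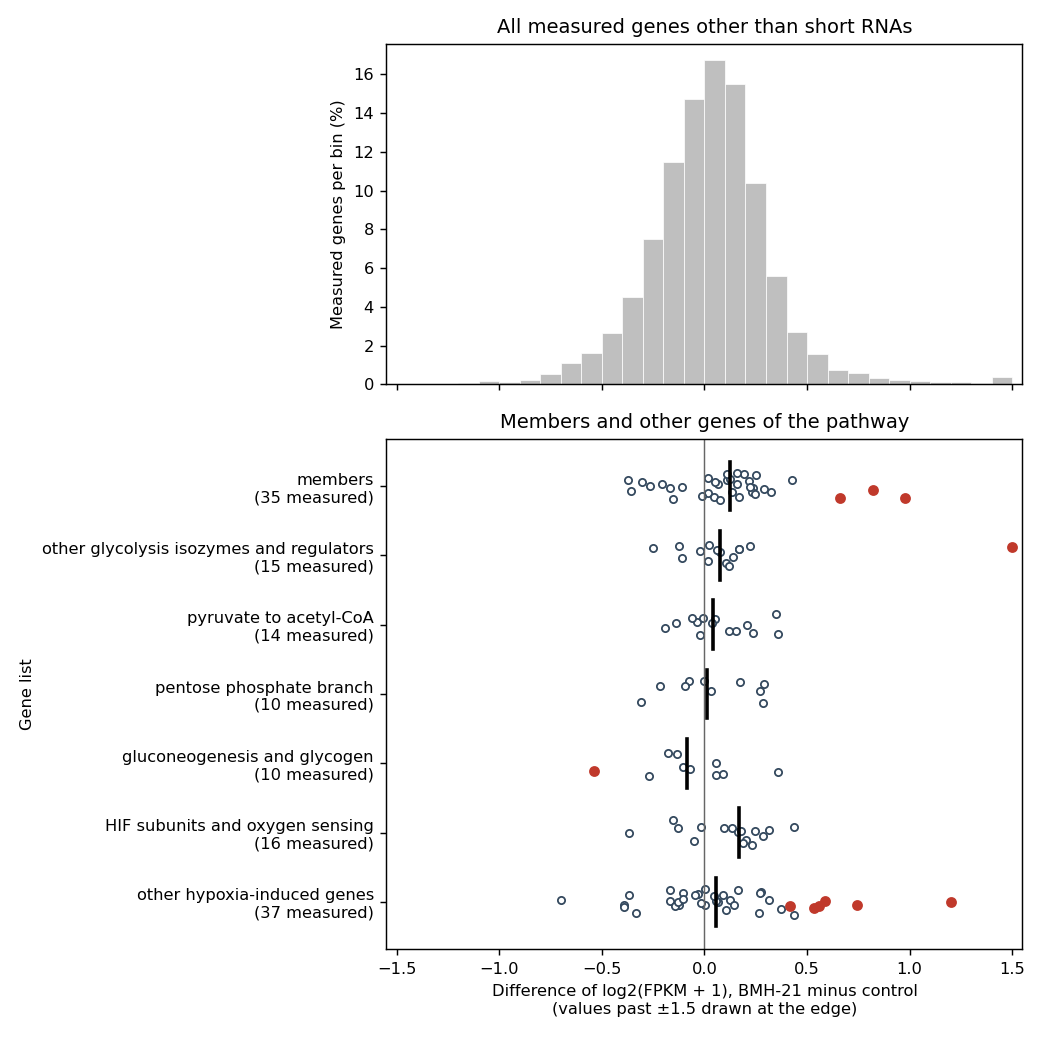
Upper panel, share of the 12740 measured genes other than short RNAs in each bin of log2 difference, BMH-21 minus control; lower panel, the same difference for each measured member and each measured gene of 6 other lists, with bars at the medians and filled points where intervals were separate. The members' median is 0.13, and TIGAR, at 1.93, is drawn at the right edge, where values past 1.5 were placed.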

How the data were processed

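RNA from A375 cells was extracted with Trizol and made into libraries with a stranded total RNA kit, per the labels' protocols. The authors deposited 1 table of FPKM values, and the tools TopHat2 and Cuffdiff 2.0 and the build GRCh37 are listed, per the submitters' processing notes, without roles or settings. The annotation behind the gene rows was not given in the sources used here. Samples were grouped by the treatment label.

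The 3 columns of a group were read as an estimate and its bounds, so values of single libraries were not analysed here. The planned limma test over libraries had no input, and no test was made. The half-width of a difference adds the half-length of each group's log2 interval in quadrature. In 12 rows the estimate lay outside its bounds, and these were left out. Short RNA rows (1859, snoRNAs, microRNAs and the like) were left out of the background by symbol. The symbol pattern can also match longer RNAs, such as microRNA host genes. FPKM per length allows levels of different genes to be summed. Isozyme shares used the estimates, and their ranges took each bound at its extreme.

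The members and lists were chosen with earlier results of these data known. The text names all members and, in each other list, up to 4 separate genes per direction by size, or otherwise the highest and the lowest; 1 gene that this rule names is not reported here. Promoters were searched for 5-base motifs. The calculations used Python 3.11.15, pandas 2.3.3 and numpy 2.4.6. They were run on simulated data, a copy of the control values with known large folds set in some genes. That copy held no noise, so the run checked the code alone. Alternatives covered the pseudocount of 1, the scaling, the filter and the rule for a call.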

Additional observations from a re-analysis of the deposited data

How the results depend on the processing

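SLC2A1, ANGPTL4 and NDRG1 kept separate intervals under all 3 other scalings, and NDRG1 lost them when intervals were widened 1.5 times. Over the 5 pseudocounts and scalings their log2 differences ran from 0.89 to 1.00, from 0.77 to 1.05 and from 0.60 to 0.69. A filter leaves the bounds of a gene as they are, so the other filters could not alter these calls. ANGPTL4 passed the filter of 5 FPKM only through its BMH-21 estimate. Counting differences beyond the half-width gave 2 lower members (PFKFB3 and PDK1) in place of 0. The members' median, 0.13, became 0.018 under quantile normalization, which turned the sign of 8 measured members (GAPDH, HK1, LDHA, LDHB, PFKFB4, PGAM1, PGK1 and SLC2A3), and the cause was not tested. Among the other pathway genes the 7 higher became 4 under median centring, under the total without short RNA rows and by the fold of 1.5, and 3 with widened intervals. The 1 lower gene became 2 with no filter, 0 with widened intervals and 3 beyond the half-width. Over all genes, 916 were higher and 902 lower beyond the half-width, 184 and 94 with widened intervals, and 304 and 244 at 5 FPKM or more, where fewer genes were counted. Of 36 isozyme shares, 10 left their range when all isozymes of the lists were summed, as that sum requires. Differences of EGLN3, CA9 and CA12, all under 1 FPKM, depended on the pseudocount. No paired analysis was possible because the table holds 1 estimate per group, and leaving out replicates was not run for the same reason. Unknown depth and the bounds limit what can be resolved. By the laxer measure that limit was about 0.37 on the log2 scale, the members' median half-width. Separate intervals ask for more, as the intervals of ADM overlapped at a difference of 0.43.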
